A study of Homo sapiens with 6 samples.

Results

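Genes of the NRF2 pathway, 10 in number, were followed in UMUC3-c31 bladder cancer cells treated with the synthetic androgen R1881. They were the stress-induced genes HMOX1, NQO1, GCLC, GCLM, TXNRD1, SRXN1, GSR and FTL, the gene of the factor itself (NFE2L2) and that of its inhibitor (KEAP1). The members were every probe set that the platform annotation assigned to 1 of these genes and to no other, which gave 28 of the 49193 probe sets and 10 of the 18129 genes measured. The R1881 group had 3 arrays from cells given 10 nM R1881 for 24 h. The vehicle group had 3 arrays from cells given ethanol for 24 h. Both groups had first spent 24 h in charcoal-stripped serum, which is low in steroids, and the design text calls the replicates biological. The labels do not say how the c31 line was made. RNA was taken from whole cultures, so less RNA per cell and fewer cells of an expressing kind cannot be told apart.

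NRF2, the product of NFE2L2, is a transcription factor that cells hold at a low level while KEAP1 marks it for degradation. Oxidants and electrophiles disable KEAP1, and NRF2 then binds antioxidant response elements together with small MAF proteins. Its targets make glutathione, regenerate thioredoxin, detoxify quinones and handle haem and iron. Because the control acts mainly on the stability of the NRF2 protein, NFE2L2 RNA need not follow the activity of the pathway. In urothelial carcinoma the pathway is among those known to be altered by mutation.

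HMOX1 was lower with R1881, and it was the 1 gene of the 10 that passed the test. It encodes haem oxygenase 1, which splits haem into biliverdin, iron and carbon monoxide, and besides NRF2 it is controlled by the haem-sensing repressor BACH1. On its brightest probe set (11716939_a_at) the deposited log2 levels were 8.95, 8.95 and 8.97 in R1881 cells, against 9.41, 9.42 and 9.37 in vehicle cells. Every R1881 array thus lay below every vehicle array, and the arrays of a group were close to each other. The means were 8.96 ± 0.01 in R1881 cells and 9.40 ± 0.03 in vehicle cells (SD, n = 3 each). The log2 change was -0.44 ± 0.04 (SE; limma adjusted p = 0.00242 over all genes). This put HMOX1 at 0.735 of the level in vehicle cells (95% confidence interval 0.688 to 0.786). It ranked 90 by p and 251 by size of change among the 18129 genes.

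The remaining HMOX1 probe sets showed the same direction. Set 11753446_x_at had 8.39, 8.32 and 8.39 in R1881 cells, against 8.77, 8.78 and 8.61 in vehicle cells. Set 11753445_a_at had 7.24, 7.25 and 7.37 in R1881 cells, against 7.72, 7.74 and 7.60 in vehicle cells. Vehicle replicate 3 was the lowest vehicle array on all 3 sets, and the groups did not overlap on any of them. When all 49193 probe sets were tested, the log2 changes were -0.44, -0.35 and -0.40 with limma adjusted p of 0.00480, 0.0472 and 0.0294. These were the only called sets among the 28 members, 3 lower and 0 higher, while 0.427% of all probe sets were called lower. All 3 belong to the same gene, and the annotation gives both dimmer ones the same source sequence. They are therefore not independent of each other. Both dimmer sets failed the threshold in each of the 6 fits on 5 arrays (adjusted p of 0.0544 to 0.187), and the calls over all probe sets numbered 302 to 406 there, against 759 with all 6 arrays. The brightest set passed in all 6 of these fits (adjusted p of 0.0249 to 0.0359), the one without vehicle replicate 1 included, which scored 11.04 on the second principal component while vehicle replicates 2 and 3 scored -8.21 and -6.99.

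**Figure D1:**
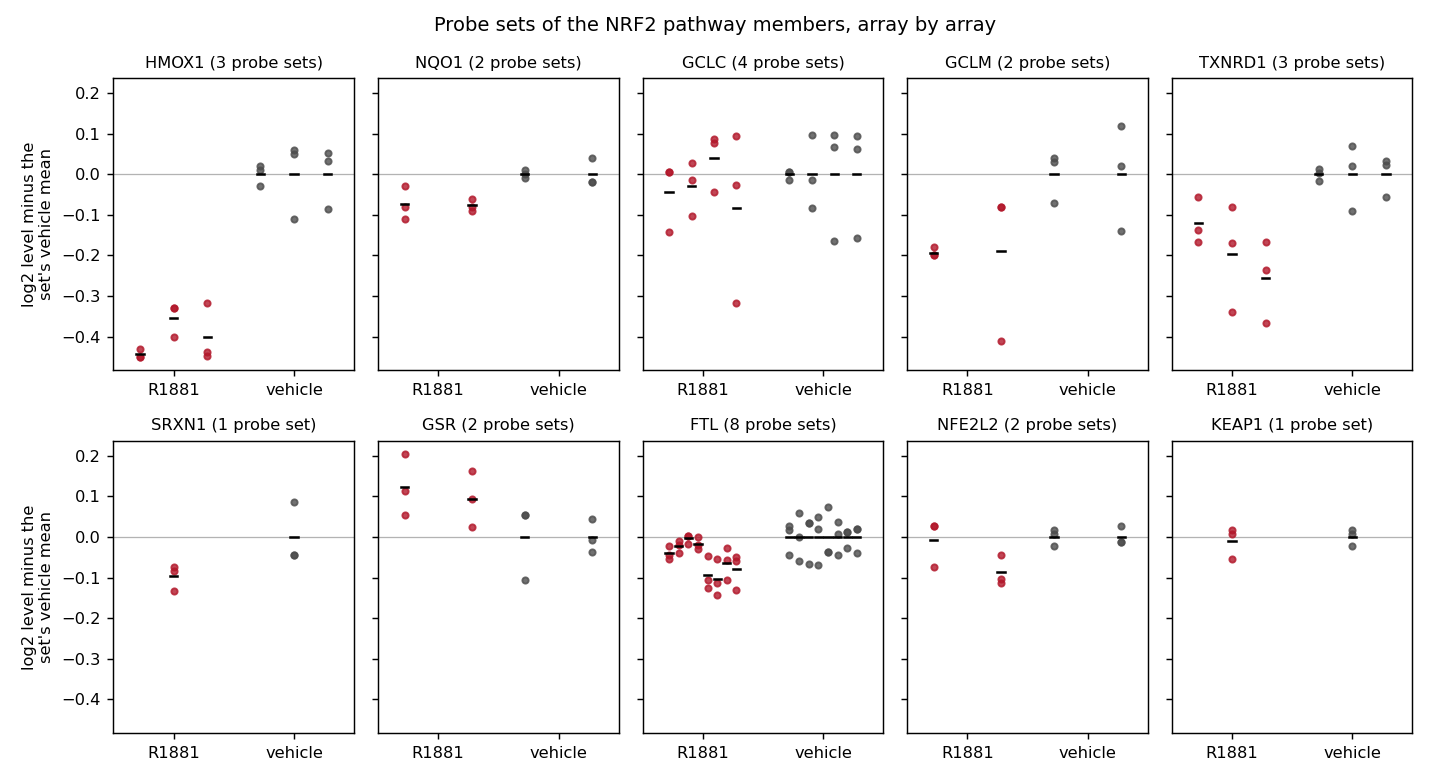
Each panel is 1 gene, and each column of 3 points is 1 probe set in R1881 cells (red, left) or vehicle cells (grey, right), with the brightest set first; the y axis is the log2 level minus that set's vehicle mean, and the black bars are group means. The 3 HMOX1 sets lie wholly below their vehicle arrays in R1881 cells, while in the other panels the means stay between -0.26 and 0.12.

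Among the glutathione genes none passed the test. GCLM, the modifier subunit of the glutamate-cysteine ligase that starts glutathione synthesis, had 10.32, 10.34 and 10.32 in R1881 cells, against 10.55, 10.45 and 10.56 in vehicle cells. The groups did not overlap there, and the log2 change was -0.19 ± 0.05 (SE; limma adjusted p = 0.112), or 0.875 times the vehicle level (95% confidence interval 0.810 to 0.945). Its dimmer set had the same change, -0.19 ± 0.11, but overlapping groups: 6.19, 6.52 and 6.52 in R1881 cells, against 6.46, 6.62 and 6.72 in vehicle cells. GCLM was called lower when dim genes were left out (adjusted p = 0.0413) or with a prior variance both trended on the level of a gene and robust (0.0143), so its side of the threshold rests on the fit.

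GCLC, the catalytic subunit of the same ligase, had 7.70, 7.70 and 7.55 in R1881 cells, against 7.68, 7.70 and 7.70 in vehicle cells. The arrays overlapped and the log2 change was -0.04 ± 0.05 (SE; limma adjusted p = 0.754). Its 4 probe sets ran from -0.08 to 0.04, and 1 of them lay below the background level of 4.99 (the level under which 90% of olfactory receptor and keratin-associated protein genes fell). GSR, glutathione reductase, which returns oxidised glutathione to its reduced form, was the only member with a positive sign on its brightest set. It had 9.45, 9.54 and 9.39 in R1881 cells, against 9.39, 9.23 and 9.39 in vehicle cells. The highest vehicle arrays equalled the lowest R1881 array, and the log2 change of 0.12 ± 0.06 (SE) did not pass (limma adjusted p = 0.444). Without vehicle replicate 2 it was 0.07. Its other set stood at 0.09 ± 0.06, also with overlapping groups.

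The members TXNRD1, NQO1 and SRXN1 were lower by sign on each of their probe sets, and none of these sets passed as reported. With the trended, robust prior TXNRD1 was among the members with a probe set called lower. Its brightest set did not pass in the gene fit with that prior (limma adjusted p = 0.0595). TXNRD1, thioredoxin reductase 1, had 12.46, 12.35 and 12.38 in R1881 cells, against 12.53, 12.52 and 12.50 in vehicle cells. The groups stood apart there by 0.04 at their nearest arrays, and the log2 change was -0.12 ± 0.05 (SE; limma adjusted p = 0.310, unadjusted p = 0.0362). The dimmer TXNRD1 sets gave larger changes, -0.20 ± 0.08 and -0.26 ± 0.07, with adjusted p of 0.381 and 0.154 among all probe sets. R1881 replicate 2 was the lowest array on all 3 TXNRD1 sets.

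NQO1, a quinone reductase widely used as a reporter of NRF2 activity, had 11.16, 11.13 and 11.21 in R1881 cells, against 11.25, 11.24 and 11.23 in vehicle cells. Its groups did not overlap on either of its 2 sets, yet the change was small: -0.07 ± 0.04 (SE) on the brightest, or 0.950 times the vehicle level (95% confidence interval 0.886 to 1.02; limma adjusted p = 0.486). SRXN1, sulfiredoxin, which repairs overoxidised peroxiredoxins, had 10.74, 10.69 and 10.75 in R1881 cells, against 10.91, 10.78 and 10.78 in vehicle cells. Vehicle replicate 1 was the highest array, and the log2 change of -0.10 ± 0.05 (SE) did not pass (limma adjusted p = 0.458). Without vehicle replicate 1 it was -0.05.

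**Figure D2:**
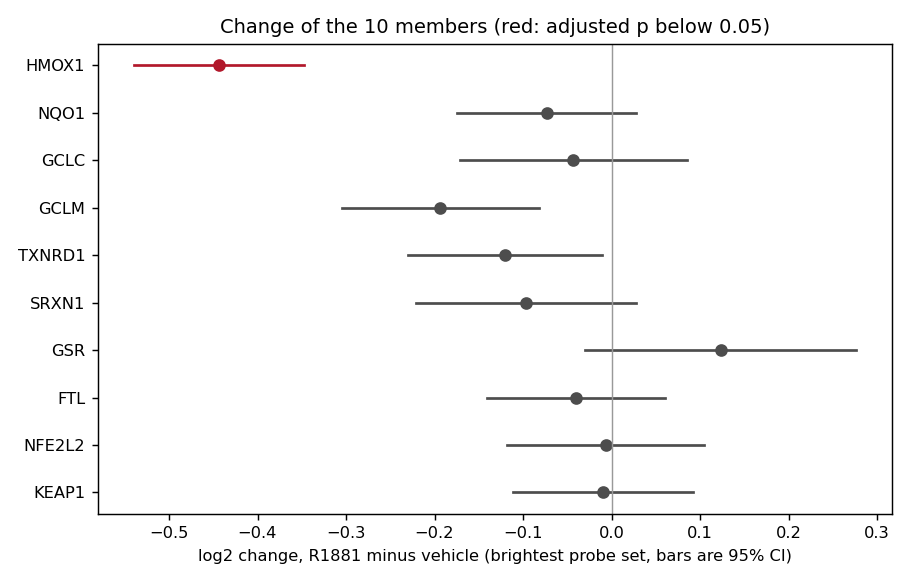
Log2 change of R1881 minus vehicle on the brightest probe set of each gene (points), with 95% confidence intervals (bars) from 3 arrays per group; red marks an adjusted p below 0.05. HMOX1 at -0.44 lies apart from the rest, which run from -0.19 for GCLM to 0.12 for GSR.

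FTL encodes the light chain of ferritin, the cage that stores iron. Its RNA carries an iron-responsive element, through which iron controls mainly translation, so that FTL RNA and ferritin protein can differ. On its brightest set FTL had 13.47, 13.46 and 13.49 in R1881 cells, against 13.47, 13.53 and 13.54 in vehicle cells. The groups overlapped, and the log2 change was -0.04 ± 0.04 (SE; limma adjusted p = 0.706), a ratio of 0.973 (95% confidence interval 0.907 to 1.04). Without vehicle replicate 1 the change was -0.06. The gene thus showed no change detectable with 3 arrays per group, and its levels were close to the top of the scale, where compression of changes was not tested.

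The 8 FTL probe sets fell into 2 kinds, a split made after their values were seen. The 4 brighter ones, all with identifiers ending in _s_at, had changes of -0.04 to -0.003, and vehicle replicate 1 was the lowest vehicle array on 4 of 4. The 4 dimmer ones, all ending in _x_at, had changes of -0.10 to -0.06, and vehicle replicate 1 was the highest vehicle array, or tied for it, on 4 of 4. On the dimmer kind the R1881 arrays ran from 12.72 to 12.86 and the vehicle arrays from 12.81 to 12.98, and 3 of these sets had groups that did not overlap. Both endings mark sets whose probes can match more than 1 transcript, and FTL has many processed pseudogenes, so signal of related sequences may mix in these values. None of the 8 passed the test (limma adjusted p of 0.459 to 0.986 among all probe sets).

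**Figure D3:**
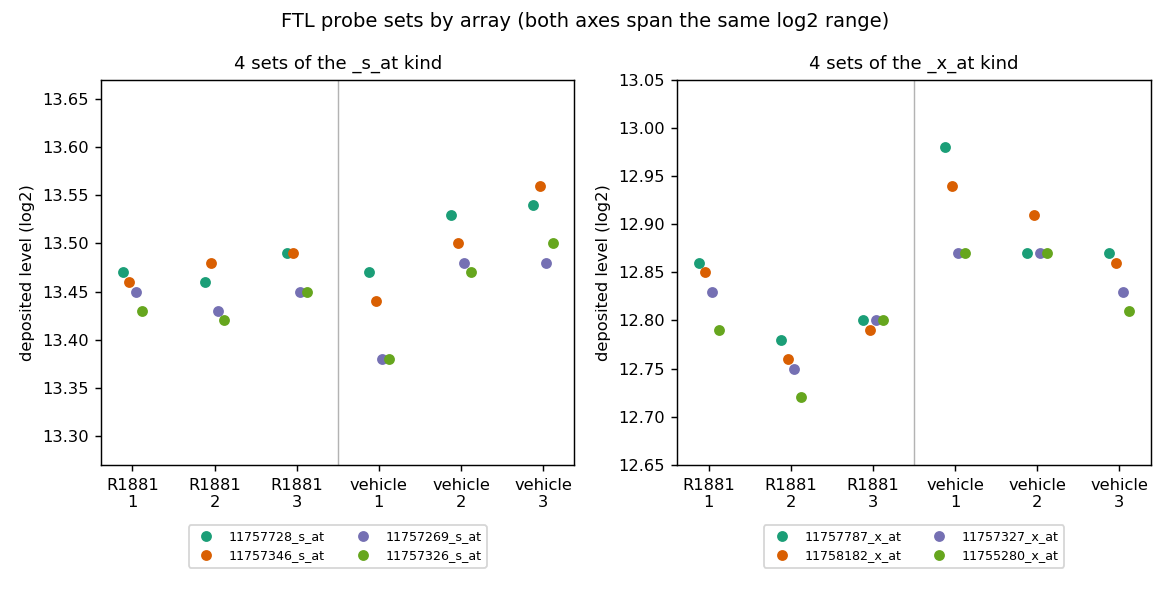
Deposited log2 level of the 8 FTL probe sets (colours) on each of the 3 R1881 arrays and 3 vehicle arrays, with the brighter kind on the left and the dimmer kind on the right. Vehicle replicate 1 is the lowest vehicle array on the brighter 4 sets and the highest or tied on the dimmer 4.

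Neither the sensor nor the factor passed the test, and the groups overlapped on the brightest set of each. NFE2L2 had 10.04, 10.14 and 10.14 in R1881 cells, against 10.12, 10.09 and 10.13 in vehicle cells, with a log2 change of -0.01 ± 0.05 (SE; limma adjusted p = 0.962). The 95% confidence interval of its ratio was 0.922 to 1.08. A dimmer NFE2L2 set read 8.84, 8.85 and 8.91 in R1881 cells, against 8.94, 8.98 and 8.94 in vehicle cells, a change of -0.09 ± 0.05 without overlap that did not pass either (adjusted p = 0.4997 among all probe sets). KEAP1 had 7.88, 7.81 and 7.87 in R1881 cells, against 7.88, 7.87 and 7.84 in vehicle cells. Its log2 change was -0.01 ± 0.04 (SE; limma adjusted p = 0.936), with a ratio of 0.993 (95% confidence interval 0.925 to 1.07).

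The promoters of 8 of the 10 genes were matched by symbol in RefSeq windows on GRCh38.p14. Each window ran from 250 bases before to 50 bases after a transcript start. HMOX1 and GSR had no window, so their promoters were not searched. The matched windows were searched on both strands for TGACNNNGC, the core letters of the antioxidant response element. Of the 11 member windows, 4 held it, at GCLM, KEAP1 and TXNRD1, beside 13.3% of all 35116 promoter windows. The stretches shown come from all 4 member windows with a match and were not picked by the change of a gene. Capitals mark the match, and the letters read 5′ to 3′ on the gene's strand and end before the transcript start.
GCLM (chr1:93909431-93909489, minus strand): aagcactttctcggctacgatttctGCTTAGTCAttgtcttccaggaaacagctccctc
KEAP1 (chr19:10502772-10502850, minus strand): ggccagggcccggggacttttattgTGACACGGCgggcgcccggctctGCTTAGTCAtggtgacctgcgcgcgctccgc
TXNRD1 (chr12:104215655-104215713, plus strand): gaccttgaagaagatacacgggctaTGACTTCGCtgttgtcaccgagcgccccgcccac
TXNRD1, second start (chr12:104286905-104286963, plus strand): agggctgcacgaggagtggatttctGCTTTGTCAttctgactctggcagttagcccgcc

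GCLM and KEAP1 shared 1 match letter for letter, GCTTAGTCA, which lies on the opposite strand and starts 34 bases before the start of GCLM and 31 bases before that of KEAP1. The log2 changes were -0.19 for GCLM and -0.01 for KEAP1, neither of which passed, and their difference was not tested. The first TXNRD1 window held another match that spans the transcript start. The windows of NQO1, SRXN1, GCLC, FTL and NFE2L2 did not hold these letters. Sequence more than 250 bases before a start was not searched, so an element there would be missed. A match describes the sequence and was not tested as a binding site.

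Counted by gene, 1 of the 10 members was lower, 0 were higher and 9 did not pass. Of all genes, dim ones included, 2.42% were called, 0.816% lower and 1.60% higher. All 10 members lay above background. When dim genes were left out, 334 of 11049 genes were called lower, 2 members among them. By sign 9 of the 10 were lower with R1881, and the median change was -0.06, against 0.00 over all genes tested. The groups did not overlap in 5 of the 10 genes (HMOX1, GCLM, TXNRD1, SRXN1 and NQO1), all of them lower. Over all genes, dim ones included, 9.93% had groups apart with R1881 lower, and 8.53% with R1881 higher. The median SE was 0.0467 for the members and 0.0625 over all genes. Shares by overlap or sign among genes above background alone were not computed, so these comparisons are not like for like. Counted by probe set, 13 of the 28 were lower without overlap, against 9.08% of all sets, and sets of 1 gene are not independent of each other. On the same arrays, the HMOX1 level relative to each other member was lower with R1881, by 0.25 against GCLM up to 0.57 against GSR. The groups did not overlap for 9 of 9 such pairs, as was true for 95.3% of all genes set against HMOX1, so this count is not particular to the members.

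Other genes of the pathway were taken from 6 lists that held 113 measured genes besides the members. Of these, 3 were higher, 1 was lower and 109 did not pass, with a median of -0.003. Their share of calls, 3.54%, stands beside the 2.42% of all genes. Among 19 partners and regulators of NRF2, 1 rose, 0 fell and 18 did not pass, with a list median of 0.00. The one that rose was NFE2L1, which encodes the related factor NRF1, known for control of proteasome genes. It had 9.22, 9.28 and 9.28 in R1881 cells, against 8.88, 8.97 and 8.92 in vehicle cells. The log2 change was 0.34 ± 0.05 (SE; limma adjusted p = 0.0126), and all 6 of its probe sets were higher by sign, by 0.18 to 0.60, with 3 called. Its call was lost without R1881 replicate 2, R1881 replicate 3 or vehicle replicate 3 (adjusted p up to 0.0706). PALB2, a DNA repair protein that also binds KEAP1, stood at -0.23 ± 0.06 (adjusted p = 0.119).

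Among 28 genes of glutathione synthesis and use, 1 fell, 0 rose and 27 did not pass, with a list median of -0.01. GLRX, a glutaredoxin that uses glutathione to free thiols on proteins, had 6.42, 6.51 and 6.51 in R1881 cells, against 6.98, 6.87 and 7.06 in vehicle cells. It fell by 0.49 on the log2 scale, with an SE of 0.06, to 0.712 times the vehicle level (limma adjusted p = 0.00861), and all 3 of its sets were lower by sign, by -0.49 to -0.16, with 1 called when all probe sets were tested. The call was lost without R1881 replicate 1 (adjusted p = 0.0528) and with the most variable probe set in place of the brightest (0.0620). GSTM2 lay below background in both groups, at 2.88 in R1881 cells and 2.65 in vehicle cells.

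Among 14 thioredoxin, peroxiredoxin and methionine sulfoxide reductase genes, 2 rose, 0 fell and 12 did not pass, with a list median of -0.01. TXNIP, an arrestin-like protein that binds and inhibits thioredoxin and limits glucose uptake, had 8.22, 8.21 and 8.08 in R1881 cells, against 7.59, 7.51 and 7.29 in vehicle cells. It rose by 0.71 ± 0.09 (SE), or 1.63-fold with a 95% confidence interval of 1.42 to 1.88 (limma adjusted p = 0.00754), and 5 of its 5 probe sets were called higher. Its call was lost without R1881 replicate 1 or R1881 replicate 2 (adjusted p of 0.0563 and 0.0556). MSRB3, a methionine sulfoxide reductase, had 10.68, 10.70 and 10.63 in R1881 cells, against 10.44, 10.44 and 10.41 in vehicle cells. Its rise of 0.24 ± 0.04 (limma adjusted p = 0.0373) failed the threshold in each of the 6 fits on 5 arrays (up to 0.152), and 0 of its 4 sets were called when all probe sets were tested.

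In the remaining lists no gene passed in limma. Over all genes tested, 14.3% had an unadjusted p under 0.05, and over all pathway lists 14.2%. The share was 30% of the 10 members and 26.3% of the partners and regulators of NRF2. It was 17.9% of the glutathione list and 21.4% of the thioredoxin list. Of 17 genes of NADPH supply and carbonyl detoxification, 2 had an unadjusted p under 0.05, with a list median of -0.04. They were AKR1B10 at -0.24 ± 0.09, on a level near background, and the reductase gene PTGR1 at 0.12 ± 0.05. Of 23 genes of haem and iron handling, 1 had an unadjusted p under 0.05, with a list median of -0.03. It was ALAS1, the first enzyme of haem synthesis, at -0.14 ± 0.06, and the haem exporter gene FLVCR1 followed at 0.20 ± 0.11. Of 12 genes that make or remove superoxide and peroxide, 0 had an unadjusted p under 0.05, with a list median of 0.05. The smallest p there belonged to the NADPH oxidase genes NOX5, below background at 3.85 in R1881 cells and 3.70 in vehicle cells, and NOX4 at 0.10 ± 0.07.

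**Figure D4:**
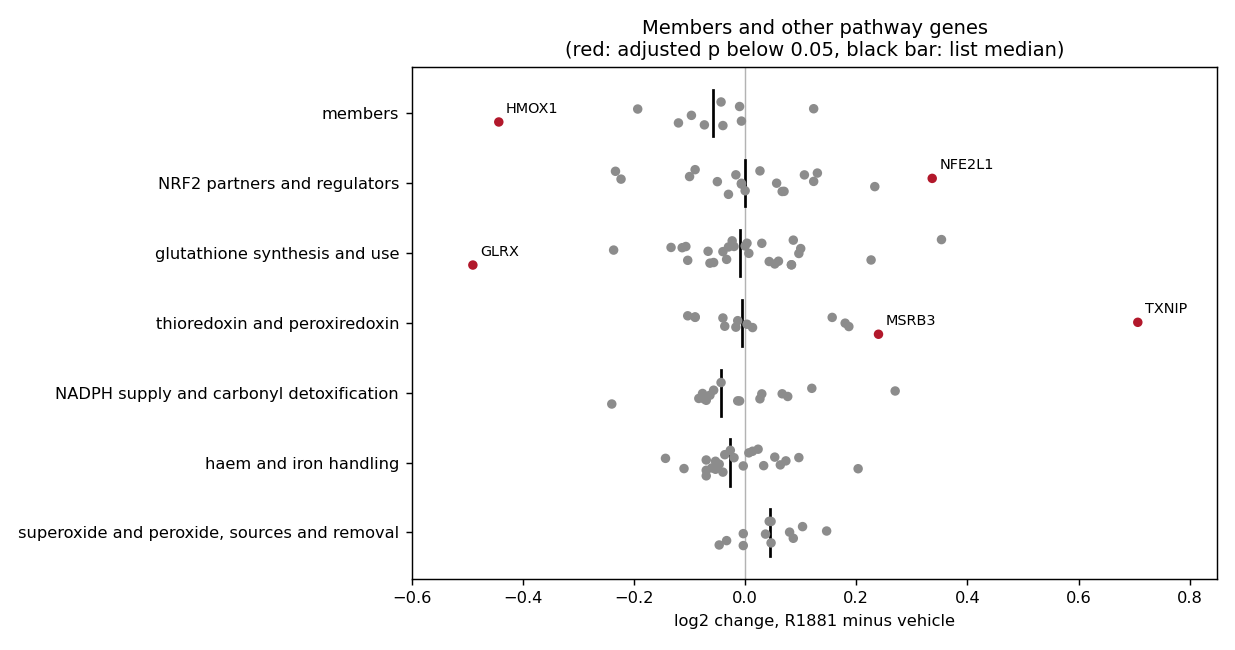
Each point is 1 gene, placed by its log2 change of R1881 minus vehicle on the x axis and by its list on the y axis (points are spread vertically for legibility); red marks an adjusted p below 0.05 and black bars are list medians. HMOX1 at -0.44, GLRX at -0.49, NFE2L1 at 0.34, TXNIP at 0.71 and MSRB3 at 0.24 are called, and the medians lie between -0.06 and 0.05.

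The genes most like HMOX1 over the 6 arrays were RGS4, GEM, IER2, SMIM14 and SLITRK5. Likeness was the root mean square difference between array values centred on each gene's vehicle mean, over 11048 other genes above background, and it was 0.028, 0.033, 0.039, 0.040 and 0.044 on the log2 scale in that order. RGS4, a regulator of G protein signalling, had 9.06, 9.14 and 9.16 in R1881 cells, against 9.56, 9.58 and 9.55 in vehicle cells. The 5 changes ran from -0.47 to -0.40, as their selection by likeness to HMOX1 implies. They are a description over 6 arrays and say nothing of a shared function.

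The array medians were 5.49 to 5.51, and the groups separated on a first principal component that held 43.2% of the variance. Of 13 measured epithelial and urothelial markers 5 lay above background. KRT18 and KRT8 were among them, at 10.38 and 7.84 in R1881 cells and 10.75 and 7.91 in vehicle cells, while CDH1 and EPCAM were below. In this list KRT18 fell by 0.37 on the log2 scale and KRT7 rose by 0.40 (limma adjusted p of 0.00830 and 0.0192). Of 14 immune or endothelial markers 1 was called. It was TEK, at 5.0 in R1881 cells, close to the background level of 4.99, and below that level in vehicle cells, at 3.72. None of 12 fibroblast and smooth muscle markers was called in limma, 1 having an unadjusted p under 0.05. Above background in at least 1 group lay 5 of the 14 immune or endothelial markers, CD68 among them at 8.69 in R1881 cells and 8.93 in vehicle cells. So did 5 of the 12 fibroblast and smooth muscle markers, THY1 among them at 8.37 in R1881 cells and 8.13 in vehicle cells. PTPRC, PECAM1, COL1A1 and DCN were below background in both groups. The part of other cells in these results was not tested.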

How the data were processed

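Each array of the 6 has 1 deposited log2 value per probe set, rounded to 2 decimals. The submitters' processing notes name RMA and no version. This method subtracts background, gives all arrays one distribution of values and combines a set's probes, so a shift shared by most transcripts would be lost. No scanner output was used, and the number of arrays limits the precision.

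Probe sets were named from the platform annotation, in which 44898 of 49193 had 1 gene symbol, 1825 several and 2470 none. Of the former, 44871 had an Entrez identifier found in the RefSeq gene table, and 0 symbols needed an update. A gene was represented by the set with the highest mean over the 6 arrays. R1881 minus vehicle was tested with limma 3.58.1 (lmFit, eBayes without trend) in R 4.3.3, two-sided, with Benjamini-Hochberg adjustment over all 18129 genes, and separately over all 49193 probe sets, at a threshold of 0.05. No pseudocount or filter was used. The fit was tested on simulated data.

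The members and the lists were chosen with earlier results of these data known. Named were all members, up to 6 called genes of each pathway list and, where fewer than 2 passed, those with the smallest p up to 2. Of the marker lists the rule names called genes only. The genes most like the member with the largest change were named as well. Genes outside this rule were chosen after their values were seen, and these are the markers KRT8, CDH1, EPCAM, CD68, THY1, PTPRC, PECAM1, COL1A1 and DCN and the genes of the closing observations. Alternatives were array re-centring, another quantile normalization, a filter on dim features, a trended robust prior, weights per array, the replicate number as a block, the mean or the most variable set of a gene, and each array left out. An exact permutation test of 3 against 3 arrays cannot go below p = 0.1, so none is given.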

Additional observations from a re-analysis of the deposited data

How the results depend on the processing

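HMOX1 kept its direction and its call in all 14 alternatives run on the gene fit, with log2 changes of -0.46 to -0.40 and adjusted p of 6.4e-05 to 0.0283. Member genes called lower numbered 2 without dim features and 2 with a trended, robust prior, against 1 as reported. Called genes of all kinds then numbered 757 and 895, against 438 as reported. Called member probe sets numbered 5 with the trended, robust prior, 2 with array weights and 1 with the replicate block, against 3 as reported. The number was 1 when any array was left out. With array weights HMOX1 set 11753446_x_at lost its call (limma adjusted p = 0.056). Pathway genes outside the members that were lower numbered 3 without dim features, 2 with the trended prior and 0 with the most variable probe set, against 1. Those that were higher numbered 4 with the trended prior, 2 after re-centring, 2 with the most variable probe set and 1 with the replicate block, against 3. Without 1 array the higher count was 0 to 2 and the lower count 0 to 1. The calls over all genes were then 209 to 270. The sign of 3 uncalled members turned. The log2 change of NFE2L2 was 0.0103 after another quantile normalization and -0.0233 to 0.0267 without 1 array. That of GCLC was -0.0683 to 0.00667 and that of KEAP1 -0.0233 to 0.0117 without 1 array. MSRB3 also lost its call after re-centring (adjusted p = 0.0512) with the mean of its probe sets (0.0688), with the replicate block (0.117) and with its most variable probe set (0.45). Deviations of equal-numbered arrays correlated at 0.0922, 0.0568 and 0.0327, and those of arrays with unequal numbers at -0.0682 to 0.0279. Whether the replicate numbers pair the arrays was not tested. With the replicate number as a block 222 genes were called, and NFE2L1 stood at adjusted p = 0.0562. The cause of these shifts was not tested. Genes below background and changes near the rounding of the values are the least certain.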

Other observations

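Several other genes that bear on HMOX1 or on NRF2 did not pass the test, and they were picked after their values were seen. BACH1, the haem-sensing repressor of HMOX1, stood at 6.14 in R1881 cells and 6.14 in vehicle cells, a log2 change of -0.01 ± 0.04 (SE; limma adjusted p = 0.958). HMOX2, the constitutive haem oxygenase, stood at 9.003 in R1881 cells and 9.073 in vehicle cells, a change of -0.07 ± 0.05 (adjusted p = 0.570). SLC7A11, the cystine importer that feeds glutathione synthesis, changed by -0.07 ± 0.07 (adjusted p = 0.716) and thioredoxin itself, TXN, by 0.01 ± 0.05 (adjusted p = 0.933). SQSTM1, an autophagy receptor that draws KEAP1 away from NRF2, stood at 0.03 ± 0.06 (adjusted p = 0.859). TFRC, the transferrin receptor that brings iron into cells, stood at 0.01 ± 0.06 (adjusted p = 0.945). Among the uncalled partners and regulators of NRF2 some moved more than these. MAFF stood at 0.23 ± 0.07 (limma adjusted p = 0.182) and BRCA1 at -0.22 ± 0.06 (adjusted p = 0.120), and the groups of each did not overlap. BRCA1 was called without dim features and with the trended, robust prior. With 3 arrays per group the lack of a call does not show that the RNA levels were equal.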
